A study of Mus musculus with 4 samples.

Results

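A set of 9 genes that mark macrophages was examined: the surface receptors Csf1r, Axl and Adgre1, the complement chains C1qa and C1qb, the antimicrobial proteins Mpeg1 and Lyz2, and the lipid-handling proteins Apoe and Pla2g7. They were chosen by gene symbol with the memory to naive ratios of these arrays already known, so their ratios are given as a description and nothing is tested with them. All probe sets carrying these symbols were taken, which gave 13 probe sets of 9 genes out of 13069 probe sets in all. On the B chip there were 9 probe sets of 8 genes, and on the A chip 4 probe sets of 4 genes (C1qb, Mpeg1, Apoe and Lyz2, the last read on the A chip alone).

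The study set memory CD8 T cells against naive ones. Both bear the B6.2.16 transgenic T cell receptor, which recognises the HY antigen of male cells. Donors and hosts were female and RAG1-deficient, so they form no other T or B cells but still have macrophages and other myeloid cells. Lymph nodes were the source of the naive cells, with a stated purity above 85%. Memory cells started as splenocytes cultured for 4 days with HY peptide; after transfer, they were taken 200 days later from host spleens and lymph nodes with magnetic beads, with purity stated as above 80%. Tissue, culture, transfer, time and sorting changed together with the group and cannot be told apart. The age of the animals, whether several were pooled and whether the arrays of a preparation share an RNA extract are not stated in the sources used here.

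Each preparation was read once on each of 2 Affymetrix chips, A and B, so the series holds 4 arrays. Without replicates on either chip, neither a p-value nor an error can be given, and each difference compares 1 pair of arrays. On the B chip the Spearman correlation of memory with naive across 6540 probe sets was 0.85. On the A chip it was 0.10 across 6529 probe sets, and the 55 control probe sets shared by the chips correlated at 0.96 between the memory arrays and at 0.21 between the naive arrays. These are descriptions across probe sets, which are not replicates. The naive A values do not follow their gene names, so only the memory array is used for the A chip.

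Macrophages are tissue phagocytes that depend on signals through the receptor encoded by Csf1r for their survival and number. They make complement C1q, clear dying cells through receptors such as Axl, break down what they take up, and handle cholesterol and oxidised lipids with proteins such as ApoE. In lymph node and spleen they lie next to T cells, in sinuses, in the red pulp and around follicles. In RNA from a whole preparation, fewer cells of a type and less RNA per cell cannot be told apart.

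Sequences just before the transcription starts were matched in RefSeq (GRCm38.p6) for 6 of the 9 genes, namely C1qb, Mpeg1, Lyz2, Apoe, Axl and Pla2g7. No sequence was used for Csf1r, Adgre1 and C1qa. The search for the members left out a chromosome that the windows of all listed starts, given below, include. The 4 printed here belong to those of the 6 genes that read at least 2-fold higher in memory on the B chip. Each holds the 250 bases before the start, 5′ to 3′ on the strand of the gene, and capitals mark GAGGAA or its reverse complement, the core bound by the myeloid transcription factor PU.1. For Apoe, which has 3 listed starts, the most upstream is shown. The regions are chr4:136886201-136886450 (minus strand) for C1qb, chr7:19699189-19699438 (minus) for Apoe, chr19:12460520-12460769 (plus) for Mpeg1 and chr17:43568201-43568450 (plus) for Pla2g7.
C1qb: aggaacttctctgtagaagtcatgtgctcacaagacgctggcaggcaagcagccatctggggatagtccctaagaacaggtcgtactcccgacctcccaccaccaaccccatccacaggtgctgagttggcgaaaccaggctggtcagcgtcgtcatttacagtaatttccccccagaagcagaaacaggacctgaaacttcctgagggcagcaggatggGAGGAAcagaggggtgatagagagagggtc
Apoe: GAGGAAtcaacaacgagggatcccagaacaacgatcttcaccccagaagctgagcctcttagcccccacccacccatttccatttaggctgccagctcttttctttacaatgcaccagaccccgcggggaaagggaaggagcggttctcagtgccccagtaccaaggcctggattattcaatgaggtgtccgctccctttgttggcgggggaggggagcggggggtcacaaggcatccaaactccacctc
Mpeg1: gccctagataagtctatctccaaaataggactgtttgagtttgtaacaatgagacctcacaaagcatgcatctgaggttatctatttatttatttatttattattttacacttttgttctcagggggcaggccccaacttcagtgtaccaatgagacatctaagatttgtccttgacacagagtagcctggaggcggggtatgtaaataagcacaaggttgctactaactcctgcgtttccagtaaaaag
Pla2g7: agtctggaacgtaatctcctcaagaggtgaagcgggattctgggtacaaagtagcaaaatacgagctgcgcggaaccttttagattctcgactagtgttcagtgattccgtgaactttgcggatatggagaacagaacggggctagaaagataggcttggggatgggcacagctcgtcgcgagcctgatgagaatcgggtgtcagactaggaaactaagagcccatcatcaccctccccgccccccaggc

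Of these, C1qb held GAGGAA 30 bases before its start and Apoe at the far edge of the window, 250 bases before it. Mpeg1 and Pla2g7 held none. Of the 6 genes, 3 held the motif on either strand (C1qb, Apoe and Axl). It was in 4 of the 8 windows of the 6 genes, of which 2 Apoe windows overlap, and in 23.3% of 32817 windows of the same length before all listed starts. The longer form GAGGAAGT, which contains GAGGAA, was in 0 of the 8 windows and in 2.44% of all. The C/EBP form TTGCNNAA and the AP-1 form TGANTCA were also in 0 of the 8, with 9.57% and 6.75% of all windows holding them. A match describes letters and is not evidence of binding.

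On the B chip all 8 genes read higher in the memory preparation than in the naive one, under each scaling and floor tried, and 5 of them at least 2-fold: Pla2g7, Mpeg1, Csf1r, Apoe and C1qb. C1qa, Adgre1 and Axl lay within 2-fold, and none was 2-fold lower. A gene counted as measured when at least 1 scaled array value exceeded 423, the size under which 95% of the negative values of the noisier array lie, and as 2-fold different when its brighter value was also at least 846. By the same rule 41 of 462 measured genes (8.87%) were higher and 40 (8.66%) lower in memory. Because the members were picked with this contrast known, nothing is read from their count against that share. Among the 168 measured genes whose brighter value lay within the members' range, 971 to 3665, 19.0% were higher. Both the 462 and the 168 include the 8 members themselves. The median log2 ratio was 1.19 over the 8 genes, 0.15 over those 168 and -0.12 over all measured genes.

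**Figure D1:**
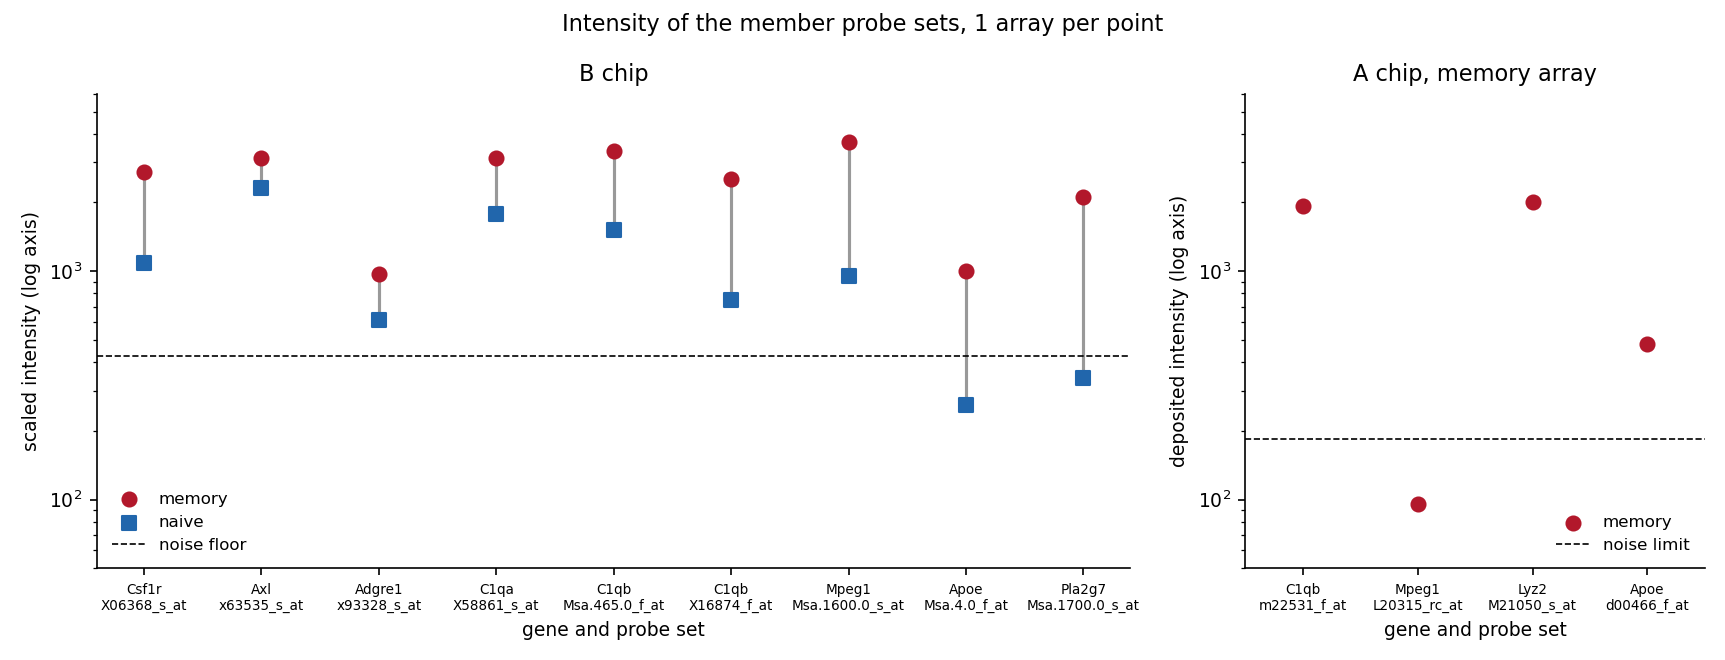
Intensity of every member probe set on a log axis: on the left the memory (red circles) and naive (blue squares) arrays of the B chip after scaling, on the right the memory array of the A chip as deposited, with 1 array per point and dashed lines at 423 and 184, under which values were treated as noise. Each memory point on the B chip lies above its naive point, the naive points of Apoe and Pla2g7 lie under the floor, and Mpeg1 on the A chip reads 96, under the limit.

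The receptors differed among themselves. Csf1r, the receptor tyrosine kinase for CSF1 and IL-34, read 2723 in memory and 1090.1 in naive (probe set X06368_s_at), which is 2.50-fold higher, a log2 ratio of 1.32. It kept a ratio of 1.32 to 1.62 under the alternative scalings and floors. Both arrays were above the floor, so the receptor was also detected in the naive preparation.

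Axl, a receptor of the TAM family that binds dying cells through the bridging protein Gas6, read 3118 in memory and 2309 in naive (x63535_s_at). That was 1.35-fold higher, a log2 ratio of 0.43 and the smallest of the 8 genes. Its naive value was 5.46 times the floor, so Axl was well detected in both preparations. Under the alternatives its ratio ran from 0.43 to 0.94 and never reached 2-fold.

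Adgre1 encodes F4/80, an adhesion G protein-coupled receptor used to define mouse macrophages. It read 971 in memory and 613 in naive (x93328_s_at), 1.58-fold higher and a log2 ratio of 0.66. Both values were close to the floor, at 2.30 and 1.45 times it. F4/80 was above the floor in both preparations and within 2-fold, but with the floor doubled the naive value fell under it and the ratio became 0.20.

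C1q, which starts the classical complement pathway, is built from the chains encoded by C1qa, C1qb and C1qc. C1qa read 3146 in memory and 1777 in naive (X58861_s_at), 1.77-fold higher, a log2 ratio of 0.82. After quantile normalization the ratio was 1.30 and after intensity-dependent normalization 1.07, both past 2-fold. So its place on either side of 2-fold depends on the scaling.

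C1qb had 2 probe sets on the B chip, and both were at least 2-fold higher in memory. The brighter one read 3347 against 1520.3, a log2 ratio of 1.14, and X16874_f_at read 2525 against 747, a log2 ratio of 1.76. They differed by 0.62 between themselves. Over 41 genes with a pair of measured probe sets on this chip, the median difference in log2 ratio was 0.31, and 8 pairs differed by more than those of C1qb. Counted by probe set, 6 of the 9 member probe sets were higher, against 67 of 1056 measured (6.34%) and 113 lower. That split of all probe sets depends on the scaling, with 94 to 91 by the median ratio, 100 to 73 by quantile and 77 to 55 by intensity-dependent normalization.

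C1qc, which is not a member, read 3549 in memory and 2984 in naive, 1.19-fold higher. The chains of this 1 protein complex thus gave log2 ratios from 0.25 (C1qc) through 0.82 (C1qa) to 1.14 and 1.76 (C1qb). Of the scalings and floors tried, only quantile normalization took C1qc past 2-fold (1.05). The naive preparation read above the floor for every chain.

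Mpeg1 encodes perforin-2, a pore-forming protein of phagocyte vesicles. It read 3665 in memory and 954 in naive, 3.84-fold higher, a log2 ratio of 1.94. With quantile normalization the ratio became 2.79. A second Mpeg1 probe set on the A chip, L20315_rc_at, with the same listed source sequence, read 96 on the memory array, under that array's noise limit of 184. With that limit halved, to 92.0, the value would count as above it.

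Lyz2 encodes lysozyme M, an enzyme of macrophages and granulocytes that digests bacterial walls. Its only probe set, M21050_s_at on the A chip, read 2007 in memory, 10.9 times the limit. No naive value was used, so Lyz2 is detected in the memory preparation and is not compared. On that array 29.5% of 4775 genes were above the limit, and 3 of the 4 member genes were.

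Both lipid genes were under the floor in naive cells, so their folds are lower bounds. Pla2g7, the platelet-activating factor acetylhydrolase that travels with lipoproteins, read 2111 in memory and 339.5 in naive, at least 4.99-fold higher. The log2 bound of 2.32 became 1.32 with the floor doubled and 2.64 with it halved.

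Apoe, the cholesterol-carrying apolipoprotein made in quantity by macrophages, read 1002 in memory and 259.9 in naive. This was at least 2.37-fold higher, a log2 bound of 1.24, which became 0.24 with the floor doubled and 1.95 with it halved. Apoe was thus the only 1 of the 5 higher genes whose call ended when the floor was doubled. On the A chip another Apoe probe set, d00466_f_at, read 479 in memory, 2.60 times the limit, and a C1qb probe set, m22531_f_at, read 1921, 10.4 times the limit. So both genes were also detected in memory by the other chip, while their ratios come from the B chip alone. Each of these A-chip probe sets shares its listed source sequence with a B-chip probe set of the same gene. Like those, they carry the class letter f.

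**Figure D2:**
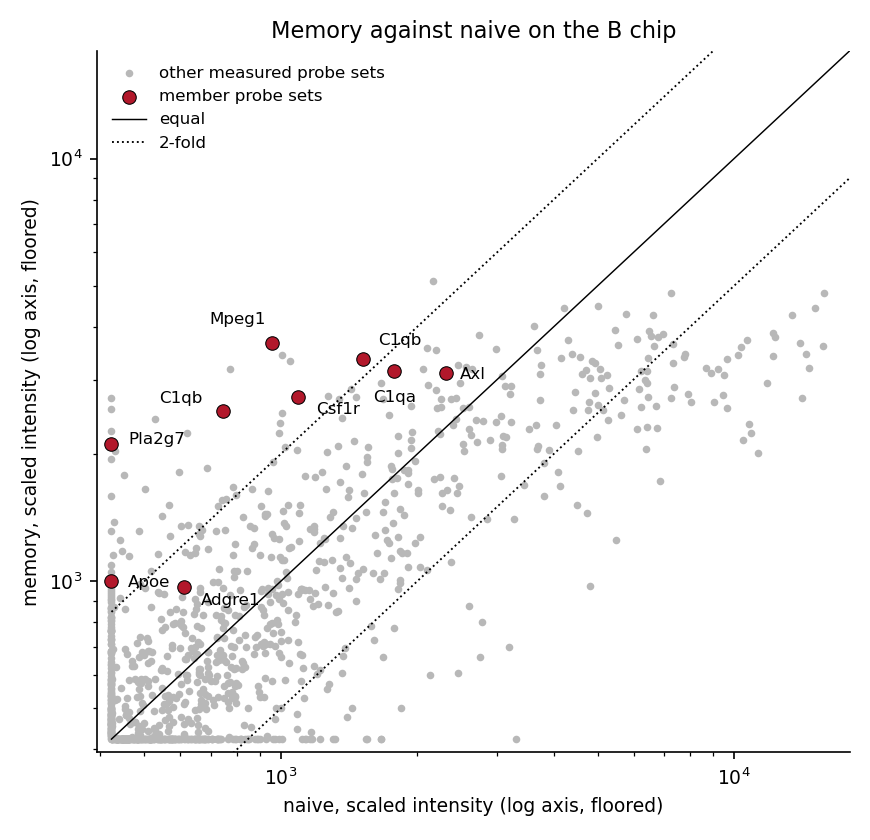
Scaled intensity of the 1056 measured B-chip probe sets in naive (horizontal) and memory (vertical), both on log axes with values under the floor of 423 drawn at it, the members in red, a solid line for equal values and dotted lines for 2-fold. All 9 member points lie above the solid line and 6 on or beyond the upper dotted line, while the brightest naive probe sets lie under the solid line.

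The 2 arrays differed in range: the highest deposited B-chip value of a gene probe set was 5163 in memory and 15668 in naive. The members' memory values, 971 to 3665, lie under the upper end of both, but not below the memory levels of probe sets far brighter in naive. For example, Eef1a1 read 3593.2 in memory and 15739.5 in naive. Others at such memory levels were near equal, such as Psap (3520.7 against 3675.4). These 2 genes are named after their values were seen. The median log2 ratio of all measured probe sets was -0.12 as reported and -0.02 with scaling by the median ratio, and relative to the reported median the member ratios ran from 0.56 (Axl) to 2.44 (Pla2g7). Whether the bend at the bright end affects the members was not tested beyond the scalings given.

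**Figure D3:**
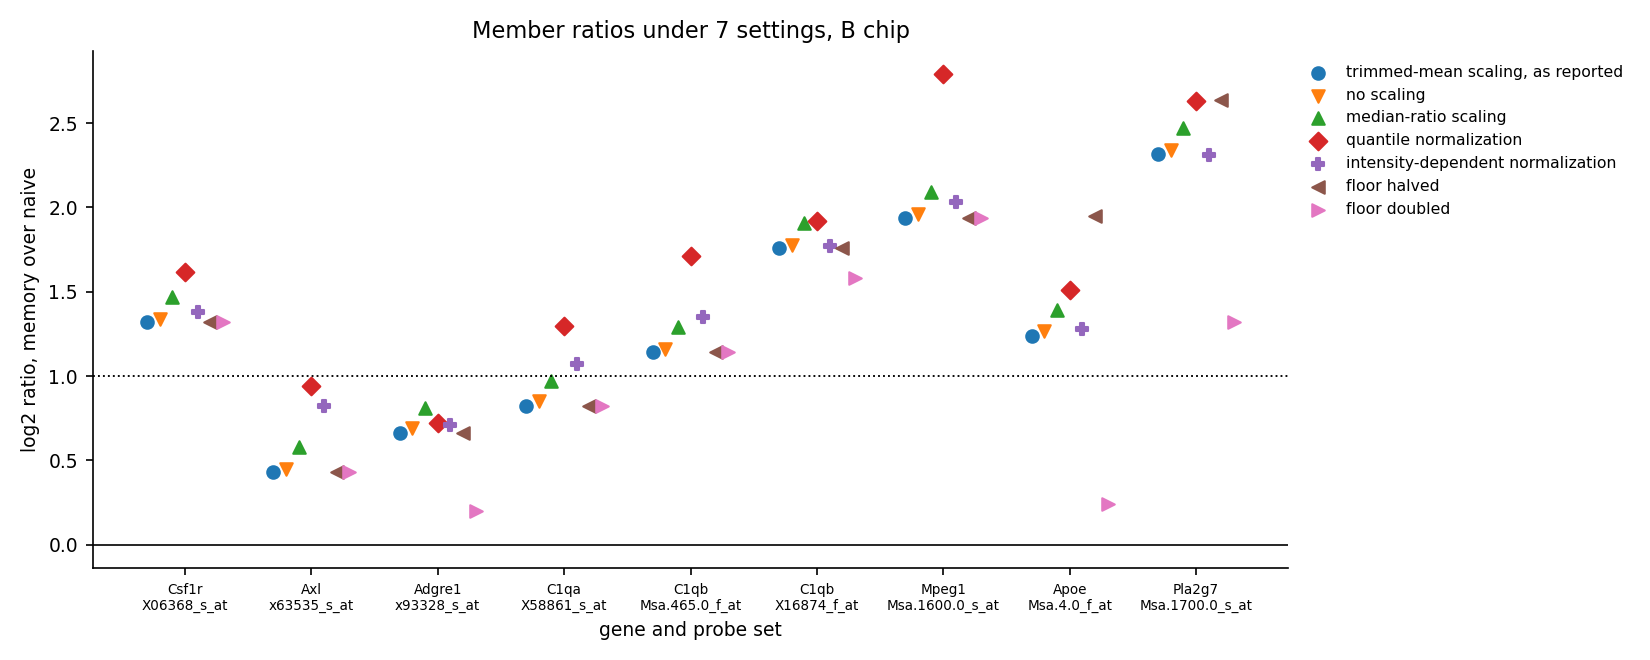
Log2 ratio of memory over naive (vertical axis) for each of the 9 member probe sets on the B chip, with 1 symbol per setting, a solid line at 0 and a dotted line at 2-fold. No setting shown turned a ratio negative, C1qa crossed 2-fold with quantile and intensity-dependent normalization, and Apoe dropped to 0.24 with the doubled floor.

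Of 98 further genes in 4 lists (CSF1 receptor and myeloid regulators, TAM receptors and efferocytosis, complement, lipid handling), 24 had a B-chip probe set and 12 were measured. Of the 12, 1 was higher, beside 8.87% of all measured genes, none lower and 11 within 2-fold. The log2 ratio was positive for 8 of the 12, and the median of the 12 was 0.36, beside -0.12 over all measured genes. The share of all measured genes with a positive ratio was not computed, so nothing is read from the 8. On the memory A array 22 of 46 were above the limit, beside 29.5% of all genes there.

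Among CSF1 receptor and myeloid regulators, only Csf1r of 3 measured genes passed 2-fold. Cebpb, a transcription factor of myeloid cells that many other cells also use, read 1655 against 862, a log2 ratio of 0.94. It passed 2-fold with scaling by the median ratio (1.09). The transcription factor gene Maf read 907 against 989, a ratio of -0.13 that turned to 0.02 with that scaling. A second, dimmer Maf probe set went the other way, at 585.6 against 477.6, a log2 ratio of 0.29.

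None of 6 measured TAM and efferocytosis genes passed 2-fold, and their median was -0.01. Gas6, the ligand of Axl, named here after its values were seen, read 586 against 423 and so sat at the floor in naive. Mfge8, the remaining measured gene and likewise named afterwards, read 463 against 634, a log2 ratio of -0.45. The endocytic receptor Lrp1 read 916 against 607. Calreticulin (Calr), which is exposed on dying cells and is a chaperone of all cells, read 1063 against 2097, and annexin A1 (Anxa1) 672 against 1100.2. Axl and Lrp1 were on the higher side in memory and Calr and Anxa1 on the lower side under each scaling tried, all within 2-fold, but Calr passed 2-fold when its probe sets were averaged.

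Of 6 measured complement genes, C1qb passed 2-fold and the median was 0.75. C1qa and C1qb are members, and 0 of the 4 that are not passed 2-fold. Properdin (Cfp), a stabiliser of the alternative pathway, read 2696 against 1685, a log2 ratio of 0.68. Factor B (Cfb), a protease of the alternative complement pathway named here after its values were seen, was at 824 in memory and, under the floor, 112 in naive cells. Its log2 bound of 0.96 passed 2-fold with the median ratio, quantile normalization or the floor halved. Itgb2, the beta-2 integrin chain shared by complement receptor 3 and by T cell LFA-1, read 2258 against 1952. Of 4 measured lipid genes, 3 passed 2-fold: Apoe, Pla2g7 and Fabp5, a fatty acid carrier, at least 2.19-fold higher (926 against 314, the naive value under the floor). Apoe and Pla2g7 are members picked with this contrast known, so nothing is read from that count. Of the 2 measured lipid genes that are not members, 1 passed, beside 8.87% of all measured genes. The Fabp5 call ended with the doubled floor (0.13).

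Of 9 further macrophage markers with a B-chip probe set, 7 were measured, and Ctsb and Ctsl were under the floor on both B arrays. Ctsb was above the limit on the memory A array. Of the 7, 3 were at least 2-fold higher and none lower, with a median of 0.70. Higher were the mannose receptor Mrc1 (log2 ratio 1.60), the lysosomal protease Lgmn (1.31) and the lectin Lgals3 (1.25). The other 4, given for completeness, were Siglec1 (0.70), Cd14 (0.42), Ctsd (0.37) and Vcam1 (0.08). Among all measured genes 8.87% were higher, and 19.0% in the members' brightness range, outside which Vcam1 and Siglec1 lie. This list was chosen with earlier results of these data known, so nothing is read from its count against those shares. The call of Lgmn ended with the doubled floor (0.44). The summed level of this list on the B chip was 16418 in memory and 11082 in naive, and that of the 8 members 20081 and 8863.

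Markers of other cell types are given beside this, and their part in the members' ratios was not tested. T cell genes summed to 5186 in memory and 8953 in naive, with 5 of 7 measured. Thy1, which made up most of both sums, was 2.17-fold lower in memory (2848 against 6184). The other 4 did not pass 2-fold, and 3 of them had 1 array under the floor. Cd2 and Cd247 were under the floor on both B arrays, though Cd247 was above the limit on the memory A array. Granulocyte genes summed to 10683 and 11260.0, with 5 of 7 measured, all 5 within 2-fold, and Mpo and Ly6g under the floor on both. The T cell sum was lower in memory under each scaling, but the Thy1 call ended after quantile (-0.34), intensity-dependent (-0.14) and median-ratio (-0.97) scaling. The granulocyte sums lay close together and changed order with the scaling, to 13849.9 against 10134 with quantile normalization.

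Dendritic cell genes summed to 10830.2 in memory and 16281 in naive, and 4 of 5 were measured. Within this list H2-Ab1, a class II chain, read 2.48-fold higher and the invariant chain Cd74 3.10-fold lower in memory, and Flt3, a defining marker, was under the floor on both arrays. The Cd74 call ended with quantile (-0.69) and intensity-dependent (-0.30) normalization, under which the sums changed order to 13211 against 12836 and 13408 against 11975. NK cell genes summed to 1786 and 3912, with Gzma 2.03-fold lower (1405 against 2848) among 3 measured, a call that ended under each other scaling.

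B cell genes summed to 1028 in memory and 1905 in naive, with Ighm alone measured of 3 and Cd79a and Pax5 under the floor on both arrays. Erythroid genes summed to 7063 and 18198; Alas2 was at least 4.60-fold higher in memory, Hba-a1 5.63-fold lower and Hbb-b2 2.67-fold lower, the last within 2-fold with quantile (-0.95) and intensity-dependent (-0.60) normalization. None of 7 stromal and endothelial genes was measured on either B array, though Col1a1 was above the limit on the memory A array. The summed level of the members was higher in memory under each scaling, from 20081 against 8863 as reported to 27752 against 8731 with quantile normalization.

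**Figure D4:**
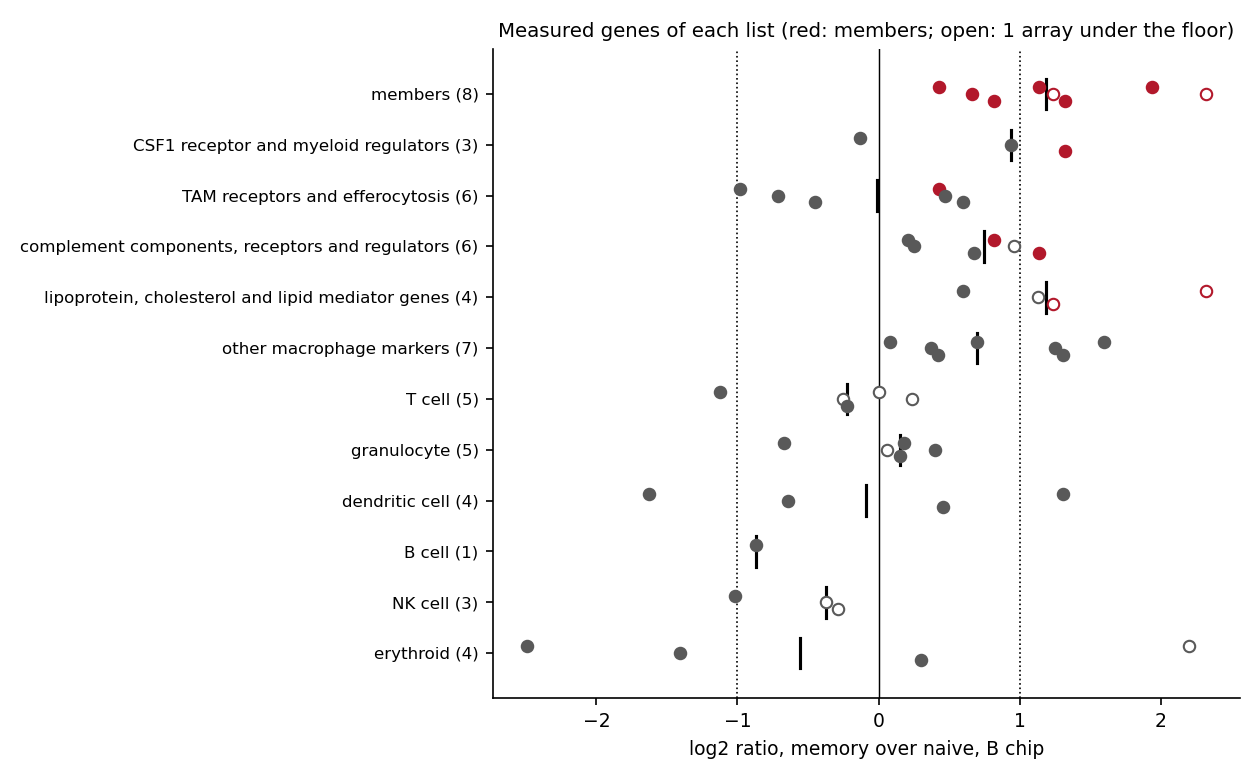
Log2 ratio of memory over naive on the B chip (horizontal axis) for each measured gene of the lists named on the vertical axis, with the number measured in brackets, members in red, open symbols where 1 array was under the floor, bars at the list median and dotted lines at 2-fold. The members and further macrophage markers, both chosen with earlier results known, lie wholly to the right of 0, as do the complement and lipid lists. The CSF1 receptor and TAM lists spread to both sides, and so do the T cell, granulocyte, dendritic cell and erythroid genes.

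The genes nearest to the members in their pair of B-chip levels were sought over 2 arrays and 454 other measured genes. The median pair of the members was 2914 in memory and 1019.9 in naive. The nearest 5 were H2-Ab1, the Ly6 surface antigen gene Ly6c2, Lgals3, the cytochrome P450 gene Cyp2d10 and Ctla2a, at distances of 0.22, 0.24, 0.30, 0.38 and 0.41 on the log2 scale. Of the members, Csf1r lay 0.14 and Mpeg1 0.34 from that point, whereas Adgre1 lay 1.75 from it and Apoe farther still. With 1 pair of arrays, likeness here means only similar readings.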

How the data were processed

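Trizol-extracted RNA was turned into cRNA and hybridised following Affymetrix, per the labels. The authors deposited an intensity for each probe set as a whole number, often negative; the sources used here do not name the software. Symbols came from GEO's platform annotation, checked by Entrez number against RefSeq GRCm38.p6 (0 changed); 5541 A-chip and 2001 B-chip gene probe sets had 1 symbol, 197 and 27 had several, 791 and 4512 none listed, and only those with 1 were named. Samples were grouped by title.

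After removal of control probe sets, the B arrays were scaled to 1 common 2% trimmed mean (factors 0.993 and 1.01). Lower values were raised to the floor of 423, then log2 ratios of memory over naive were formed, so that folds against it are lower bounds. A gene was read by its brightest probe set. The A-chip limit of 184 is that of its memory array, whose values were used as deposited.

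The members and lists were chosen with earlier results of these data known. Named are all member probe sets, list genes past 2-fold, up to 4 brighter uncalled genes of each pathway list, and the 5 nearest genes. Python 3.11.15, numpy 2.4.6, pandas 2.3.3, scipy 1.17.1 and statsmodels 0.14.6 (lowess span 0.4) were used. The procedure was tested on data made from 6540 B-chip probe sets: 196 of 200 planted 4-fold changes were recovered, 0 in the wrong direction. Both made arrays came from the same naive values plus noise far smaller than the floor. Changes were planted only in probe sets well above the floor. The difference in range between the real arrays and noise as large as the floor were therefore not part of that test. With 1 array per group and chip, the number of arrays limits the precision.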

Additional observations from a re-analysis of the deposited data

How the results depend on the processing

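Of 5 member genes at least 2-fold higher, 2 passed 3-fold (Mpeg1 and Pla2g7), and 3 of 6 passed when both arrays had to lie above the floor; 7 passed 1.5-fold, and under the other settings that held members 4 to 6 of 8 did. None was lower under any of these, and no member ratio changed sign. The 9 B-chip member probe sets all carry a class letter in their names (6 with s, 3 with f, the sequence-family class whose probes can match related genes), so the setting without class letters left no member. The 4 times floor limit and the doubled floor removed Apoe. Lowering the brightness limit to the floor could not alter a call, because 2-fold above the floor already meets it. The 3 of 4 A-chip probe sets above the limit gave 3 or 4 under other limits.

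Of 12 measured further pathway genes, 1 was higher as reported, 3 with the median ratio, 3 with quantile normalization, 4 at 1.5-fold, and 0 with the 4 times floor limit or at 3-fold. Where the number measured changed, the counts were 2 of 15 with the floor halved, 0 of 9 with it doubled, 0 of 10 with both arrays above the floor and 0 of 1 without class letters. None was lower, except 2 at 1.5-fold and 1 with the mean of all probe sets. The 67 probe sets higher became 112 and 25 with the floor halved and doubled, 25 with the 4 times floor limit, 109 and 19 at 1.5-fold and 3-fold, 4 without class letters and 43 with both arrays above the floor. The 113 lower became 207 and 74, 74, 185 and 39, and 9 under the same settings but the last, and 73 and 55 after quantile and intensity-dependent normalization. The cause of these moves was not tested. No array could be left out, and no paired analysis was possible because each group has 1 array per chip.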

Other observations

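The A-chip Mpeg1 probe set under the limit carries the letters rc in its name. Of 1260 A-chip probe sets with these letters, 19.2% were above the limit of 184 on the memory array, against 28.4% of 5269 without them. Other macrophage markers on the A chip, where naive values are not used, were above that limit in 12 of 16 genes with a probe set, beside 29.5% of all 4775 genes. Among those 12 were the lysosomal glycoprotein gene Cd68, the Fc receptor chains Fcgr3 and Fcer1g and the red pulp macrophage regulator Spic, named after their values were seen. The list was chosen with earlier results of these data known, so nothing is read from its share above the limit. Such a share was not particular to macrophage markers. Above the limit were also 2 of 3 T cell, 3 of 5 granulocyte, 3 of 5 dendritic cell and 2 of 4 B cell genes. For NK cell and erythroid genes it was 1 of 2 each, and for stromal and endothelial genes 1 of 6.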
